A study of Mus musculus with 4 samples.

Results

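The NF-kappaB system was followed in RNA sequencing of cultured mouse cells through 10 genes, chosen by name from the 55401 genes of the deposited table. They are the 5 subunit genes Nfkb1, Nfkb2, Rela, Relb and Rel, the I-kappaB genes Nfkbia, Nfkbie and Nfkbiz, the feedback deubiquitinase gene Tnfaip3 and the adhesion receptor gene Icam1. Each was found on a single row, and all 10 had enough reads to be among the 11700 genes tested. The 4 libraries are 2 from cells treated with daidzein, an isoflavone of soybean with affinity for oestrogen receptors, and 2 from control cells given the solvent DMSO. The labels describe both groups as female germline stem cells (FGSCs) from C57BL/6 ovary, and the culture medium of both held serum and the growth factors LIF, GDNF, bFGF and EGF. The labels read here state no dose, duration or animal age. They also do not say that replicates were separate cultures, so each p-value rests on a spread between libraries that may be technical.

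NF-kappaB proteins are dimers of Rel family subunits. Rela, Relb and Rel carry a domain that activates transcription, whereas Nfkb1 and Nfkb2 encode precursors from which DNA-binding subunits without such a domain are cut. I-kappaB proteins hold the dimers in the cytoplasm until I-kappaB kinases mark them for degradation. Among the genes that free NF-kappaB switches on are Nfkbia and Tnfaip3, whose products shut the pathway down again. In blood cells the pathway is known for control of inflammatory, adhesion and survival genes.

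The deposited counts summed to 17192077 and 18537134 in the daidzein libraries, and to 16230400 and 17119625 in the control libraries. The floor of 3 counts is then 0.162 to 0.185 CPM (counts scaled to a common library size) in a single library. Defining germline transcripts were nearly absent although the label names germline cells: 11 of 14 listed germline genes had at most 3 reads over all 4 libraries, and the most abundant by FPKM, Gdf9, had 2 to 11 reads per library. Transcripts of blood cells were abundant, led by Coro1a among the pan-leukocyte genes, at 254 FPKM on average (FPKM are fragments scaled by exonic length and library total), and by the mast cell protease gene Cpa3, at 481 FPKM. The mast cell genes Fcer1a, Tpsb2 and Mcpt4 had 0 reads, as did 6 of 7 listed T, B and NK cell genes. Every value below therefore describes cells with this make-up. In bulk RNA, fewer cells of a type and less RNA per cell cannot be told apart.

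Known NF-kappaB targets often carry the factor's binding sequence near their start, and the promoters are shown here because several of these genes are feedback targets of the pathway. RefSeq promoter sequences on GRCm38.p6, each 250 bases before to 50 bases after a transcript start, were at hand for 7 of the 10 genes in 10 windows, namely Nfkb2, Rela, Rel, Nfkbia, Nfkbie, Tnfaip3 and Icam1. Nfkb1, Relb and Nfkbiz had no entry. The NF-kappaB consensus of 10 letters, searched on both strands, matched in 5 of these 7 genes, at 9 separate places. By comparison, 12.2% of the 8680 tested genes with a promoter entry held a match, as did 8.46% of all 32851 windows. Of these places 6 are printed, at least 1 for each of the 5 genes, on the strand of the gene with the match in capitals and 20 bases on either side. Nfkb2 has 3 windows, each with its own start. Another Tnfaip3 match is not printed, nor are Nfkb2 matches at -11 to -2 from the upstream start and -236 to -227 from the middle start. Nfkbia is at chr12:55492647-55492696 on the minus strand, Tnfaip3 at chr10:19015393-19015442 on the minus strand, and Nfkbie at chr17:45555574-45555623 on the plus strand. The site at the upstream Nfkb2 start is at chr19:46304678-46304728 and a further Nfkb2 site at chr19:46305685-46305734, both on the plus strand. That further match lies at 11 to 20 counted from the middle start and at -225 to -216 from the last start. Rel is at chr11:23771031-23771081 on the minus strand.
Nfkbia: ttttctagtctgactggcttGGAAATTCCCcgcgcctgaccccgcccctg
Tnfaip3: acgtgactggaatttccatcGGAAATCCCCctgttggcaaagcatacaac
Nfkbie: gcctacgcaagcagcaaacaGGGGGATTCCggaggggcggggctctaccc
Nfkb2, upstream start: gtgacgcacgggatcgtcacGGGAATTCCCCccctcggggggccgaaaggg
Nfkb2, further site: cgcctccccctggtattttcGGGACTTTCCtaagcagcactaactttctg
Rel: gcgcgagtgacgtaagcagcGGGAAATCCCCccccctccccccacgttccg

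The match in Nfkbia lay at -29 to -20 from the transcript start. The printed match in Tnfaip3 lay at -12 to -3, and another in the same window at -125 to -116. The printed match at the upstream Nfkb2 start and that in Rel run over 11 bases because neighbouring positions both match. Icam1 and Rela held no match to the consensus in their windows. The Icam1 window holds the shorter word GGAAATTCC at -153 to -145, at chr9:21015767-21015815 on the plus strand, a word that was searched for after this window had been read.
Icam1: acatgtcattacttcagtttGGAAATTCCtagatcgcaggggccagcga

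On both strands that word occurred in 3 of the 7 genes, Icam1, Nfkbia and Tnfaip3, and in 0.392% of tested genes. These shares are not comparable, because the word was chosen from the Icam1 window and its presence there was known beforehand. In Nfkbia it lies inside the consensus match. The word TATAAA, searched on both strands, was also found in the windows of these 3 genes, against 7.93% of tested genes. In Icam1 it lies after the transcript start that sets the window, but before the annotated gene start at 21015985. In Nfkbia it lies after the start, and on the opposite strand. In Tnfaip3 it lies near the upstream end of the window. For Icam1 the position thus depends on which start is used, and whether the word marks a TATA box in any of these genes was not tested. A match describes letters only and says nothing of binding in these cells.

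Nfkb1 was the most abundant of the 10 genes in every library, and Tnfaip3 the least. Nfkb1 (ENSMUSG00000028163; GRCm38 chromosome 3, 135584655 to 135691547, minus strand, protein-coding), the precursor of the smaller DNA-binding subunit of the classical pathway, stood at 32.5 and 34.3 FPKM in daidzein libraries, against 34.4 and 33.7 FPKM in control libraries. The groups overlapped, and its mean level over the 4 libraries lay above that of 83.9% of tested genes. Nfkb2 (ENSMUSG00000025225; chromosome 19, 46304320 to 46312385, plus strand, protein-coding), the precursor used by the alternative pathway, stood at 13.2 and 12.0 FPKM with daidzein, against 12.7 and 12.4 FPKM in control libraries. Here too the daidzein values lay on either side of the control values. In edgeR's quasi-likelihood fit the fold of Nfkb1, daidzein over control, was 0.981 (95% interval 0.908 to 1.06). That of Nfkb2 was 1.00 (0.897 to 1.12). Nfkb2 shares 299 exonic bases with Psd and 531 with AC114539.1, both on the opposite strand. These genes had 82 to 97 and 27 to 35 reads per library, against 942 to 1039 for Nfkb2, and without a stated strand setting their reads cannot be told apart in the shared bases.

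The 3 activating subunits were less abundant than the precursors. Rela (ENSMUSG00000024927; chromosome 19, 5637483 to 5648130, plus strand, protein-coding), the main activating subunit of the classical pathway, stood at 9.35 and 8.62 FPKM in daidzein libraries, against 9.97 and 8.94 FPKM in control libraries. Its groups overlapped, and its fold was 0.951 (95% interval 0.823 to 1.10). Rel (ENSMUSG00000020275; chromosome 11, 23736847 to 23770970, minus strand, protein-coding), the subunit best known from lymphocytes, stood at 1.22 and 1.26 FPKM with daidzein, against 1.25 and 1.19 FPKM in control libraries, and its fold was 1.02 (0.823 to 1.26). Relb (ENSMUSG00000002983; chromosome 7, 19606217 to 19629438, minus strand, protein-coding), the partner of the processed Nfkb2 product, was the subunit gene whose groups did not overlap. It stood at 2.73 and 2.37 FPKM with daidzein, against 2.03 and 2.21 FPKM in control libraries, from 182 and 171 reads against 128 and 147 reads. Normalised by TMM (edgeR's scaling of library sizes), Relb averaged 9.92 ± 1.04 CPM with daidzein and 8.24 ± 0.452 CPM in control libraries (SD, n = 2 each). The fold of Relb was 1.2 (95% interval 0.961 to 1.5), an interval that includes 1. Its p by edgeR's quasi-likelihood test was 0.102 unadjusted and 1.00 after Benjamini-Hochberg adjustment over all tested genes. Its log2 difference, 0.26, was 0.15 without daidzein replicate 1 and 0.37 without daidzein replicate 2.

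**Figure D1:**
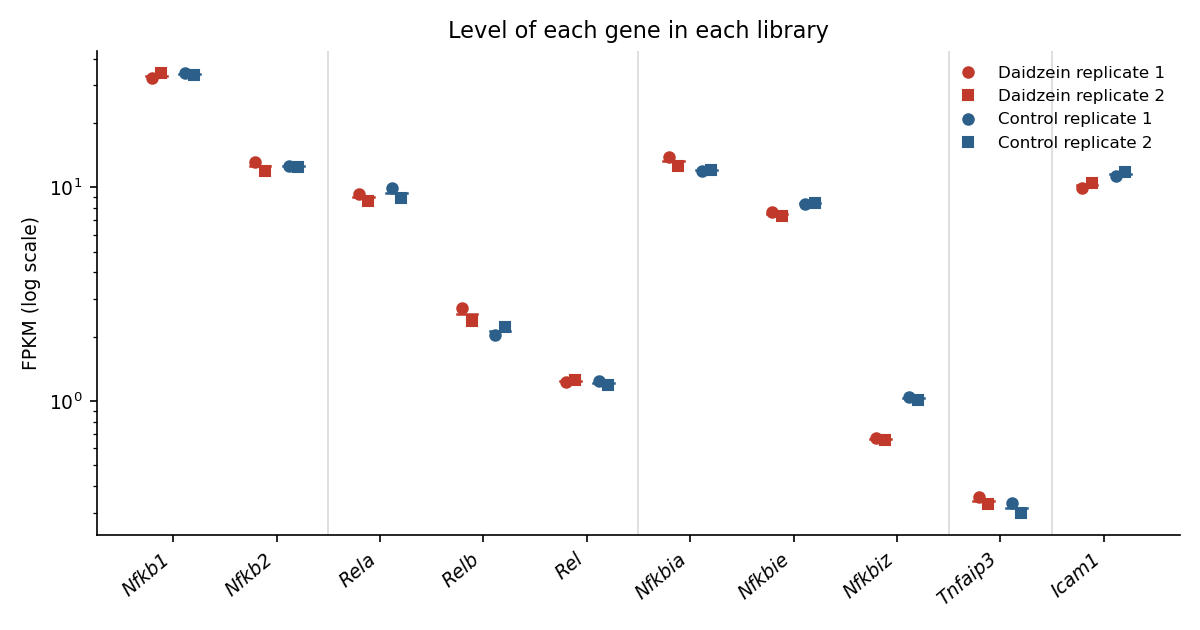
FPKM on a log axis (vertical) of the 10 genes (horizontal) in the 2 daidzein libraries (red, left of each pair) and the 2 control libraries (blue), with circles for replicate 1, squares for replicate 2 and short lines for group means. Nfkb1 lies near 33.7 FPKM and Tnfaip3 near 0.329 FPKM on average, and the visible gap between groups is that of Nfkbiz, at 0.672 and 0.656 FPKM with daidzein against 1.04 and 1.01 FPKM in control libraries.

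Within the I-kappaB genes the differences went in opposite directions. Nfkbiz (ENSMUSG00000035356; chromosome 16, 55811375 to 55838899, minus strand, protein-coding) encodes a nuclear I-kappaB protein that helps switch on a subset of inflammatory genes such as Il6. It had 58 and 61 reads in daidzein libraries, against 85 and 87 reads in control libraries, which is 0.672 and 0.656 FPKM against 1.04 and 1.01 FPKM. Both daidzein libraries lay below both control libraries, and replicates of a group differed by less than their counting error of 10.7% to 13.1%. The log2 difference was -0.63 ± 0.21 (SE), or 0.646-fold (95% interval 0.476 to 0.875). The unadjusted p of edgeR's test was 0.00725, the 46th smallest of 11700, and the adjusted p was 1.00, so Nfkbiz did not pass over all genes. With each library left out in turn the log2 difference ran from -0.66 to -0.60. On the log2(FPKM + 1) scale, which understates differences of low genes, limma gave -0.28. Relative to the other members Nfkbiz had the farthest fold from 1.

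Nfkbia (ENSMUSG00000021025; chromosome 12, 55489410 to 55492647, minus strand, protein-coding), the classical feedback inhibitor whose promoter site is shown above, stood at 14.0 and 12.6 FPKM with daidzein, against 12.0 and 12.1 FPKM in control libraries. Both daidzein libraries were above both control libraries, but daidzein replicate 2 only narrowly. Its fold was 1.10 (95% interval 0.938 to 1.29), and its log2 difference, 0.14, was 0.06 without daidzein replicate 1. Nfkbie (ENSMUSG00000023947; chromosome 17, 45555703 to 45563169, plus strand, protein-coding), a further cytoplasmic inhibitor, stood at 7.66 and 7.37 FPKM with daidzein, against 8.34 and 8.48 FPKM in control libraries. All daidzein values of Nfkbie were lower than all control values, and the fold was 0.893 (0.773 to 1.03). Neither gene passed edgeR's test, with an adjusted p of 1.00 each and an unadjusted p of 0.223 for Nfkbia and 0.12 for Nfkbie.

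Tnfaip3 (ENSMUSG00000019850; chromosome 10, 19000910 to 19015657, minus strand, protein-coding) encodes an enzyme that edits ubiquitin chains on signalling proteins of the pathway and so damps it. It had 44 and 44 reads with daidzein, against 39 and 37 reads in control libraries, or 0.354 and 0.329 FPKM against 0.333 and 0.299 FPKM. Per depth the groups overlapped. The fold was 1.08 (95% interval 0.722 to 1.62), and counting error alone was 15.1% to 16.4% of each library's value. Both Tnfaip3 and Nfkbia hold a match close to the start, and their levels over all libraries were 0.329 ± 0.0227 and 12.7 ± 0.897 FPKM (SD, n = 4 libraries).

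Icam1 (ENSMUSG00000037405; chromosome 9, 21015985 to 21028817, plus strand, protein-coding) encodes a surface receptor for leukocyte integrins and is a textbook target of NF-kappaB. It stood at 9.98 and 10.5 FPKM with daidzein, against 11.3 and 11.8 FPKM in control libraries. Both daidzein libraries lay below both control libraries. TMM-normalised, Icam1 averaged 44.8 ± 1.40 CPM with daidzein and 50.5 ± 1.10 CPM in control libraries (SD, n = 2 each). The fold was 0.887 (95% interval 0.791 to 0.994), the unadjusted p 0.0402 and the adjusted p 1.00 by edgeR. The summed level of 6 listed macrophage genes was also lower with daidzein, at 38.9 to 40.9 FPKM against 43.0 to 43.7 FPKM, although 0 of the 2 tested passed and the defining gene C1qa had 0 reads. The summed level of 4 listed endothelial genes was 0.364 to 0.454 FPKM with daidzein, against 0.303 to 0.314 FPKM in control libraries. Nearly all of that sum was Pecam1, which leukocytes also express, while Cdh5 had 0 reads, Kdr 0 or 1 and Tek 0 to 5 reads per library. The part of such cells in the Icam1 values was not tested. The antisense gene Gm47079 shares 511 exonic bases with Icam1 but had 4 to 10 reads per library, against 748 to 880 for Icam1.

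**Figure D2:**
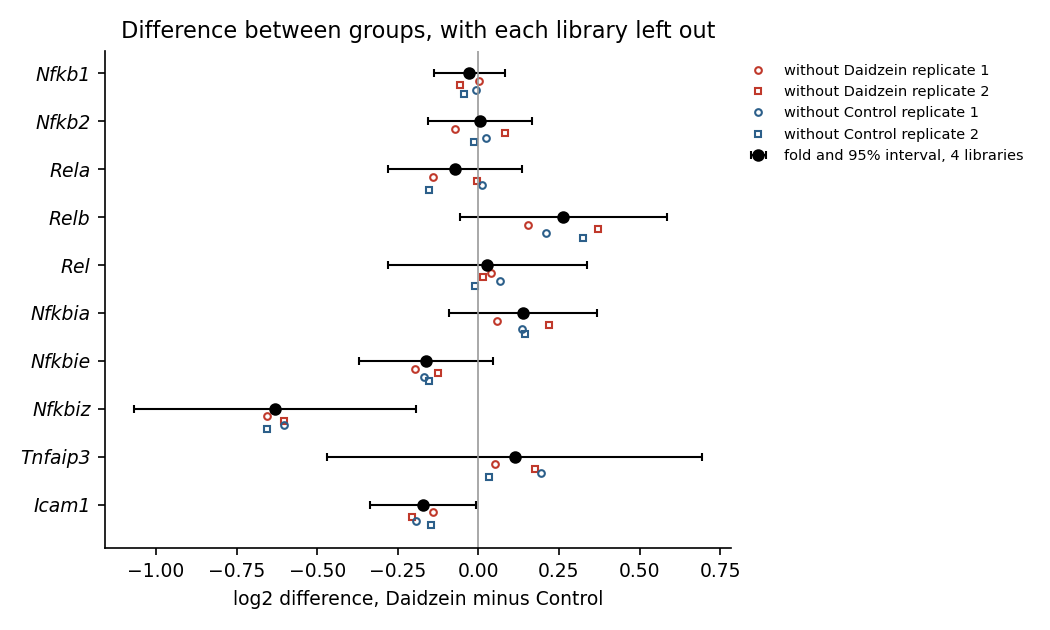
Log2 difference, daidzein minus control (horizontal), of the 10 genes (vertical), with black points and bars for edgeR's estimate and 95% interval from all 4 libraries and open symbols for the estimate with a library left out. The intervals of Nfkbiz and Icam1 lie below 0, and those of the other 8 genes include 0.

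Counted together, 0 of the 10 genes passed edgeR's test, where 0.0171% of tested genes did. These are the 2 genes Fos and Fosb, subunits of the AP-1 factor, which were lower with daidzein. DESeq2 and limma also called 0 of the 10. At an unadjusted p under 0.05 edgeR gave 0 genes higher and 2 lower, Nfkbiz and Icam1, against 1.29% of tested genes higher and 1.62% lower. DESeq2 gave 1 gene at an unadjusted p under 0.05, Nfkbiz at 0.0482. Groups did not overlap for 2 genes higher with daidzein, Relb and Nfkbia, and for 3 lower, Nfkbie, Nfkbiz and Icam1. The groups did not overlap for 29.7% of all tested genes, with 14.7% of all tested genes higher and 15% lower. The median log2 difference of the 10 genes was -0.01, with 5 above 0 and 5 below, beside a median of -0.0027 over all tested genes.

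The order of the levels was the same on both library scalings. From the top it ran Nfkb1, Nfkbia, Nfkb2, Icam1, Rela, Nfkbie, Relb, Rel, Nfkbiz and Tnfaip3, with means over the 4 libraries of 33.7, 12.7, 12.6, 10.9, 9.22, 7.96, 2.34, 1.23, 0.846 and 0.329 FPKM. Of the 9 neighbouring pairs, 8 had library ranges that did not overlap, and the exception was Nfkbia with Nfkb2. FPKM depend on the gene length, and the deposited length counts every annotated exonic base. For Nfkb1 this is 12061 bases, 2.93 times the 4117 bases of its principal transcript, while for Rel both are 7466 bases. With principal transcript lengths, an alternative chosen after the data were seen, Nfkb1 stood at 98.8 ± 2.50 FPKM, Icam1 at 18.8 ± 1.39 FPKM, Relb at 4.11 ± 0.520 FPKM and Tnfaip3 at 0.537 ± 0.0370 FPKM (SD, n = 4 libraries). Icam1 was then second in the order, and the ranges of Icam1 with Nfkb2, Rela with Nfkbie and Rel with Nfkbiz overlapped. Differences between groups within a gene do not depend on its length.

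Most of the subunit transcripts came from the precursor genes. Nfkb1 made up 55.1% and 58.6% of the summed FPKM of the 5 subunit genes in daidzein libraries, against 57.0% and 57.7% in control libraries. Rela made up 15.9% and 14.7% with daidzein, against 16.5% and 15.3% in control libraries. Both shares overlapped between the groups. Relb made up 4.62% and 4.06% with daidzein, against 3.37% and 3.78% in control libraries, without overlap. The share of Rel did not overlap either, though narrowly, at 2.073% and 2.149% with daidzein against 2.067% and 2.035% in control libraries. Relb and Rel each had an exact two-sided permutation p of 0.333, the smallest that 2 against 2 libraries allow. With principal transcript lengths the mean share of Nfkb1 was 74.1% with daidzein and 74.6% in control libraries.

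Among the 3 I-kappaB genes the shares of the sum did not overlap between the groups, while the sum itself did. Their summed level was 22.3 and 20.6 FPKM with daidzein, against 21.4 and 21.6 FPKM in control libraries. Nfkbia made up 62.6% and 61.1% of that sum with daidzein, against 56.1% and 56.1% in control libraries. Nfkbie made up 34.4% and 35.7% with daidzein, against 39.0% and 39.2% in control libraries, and Nfkbiz 3.02% and 3.18% against 4.89% and 4.69%. None of these 3 shares overlapped between the groups, as was so for the levels of the 3 genes themselves. Each share had an exact two-sided permutation p of 0.333, the smallest that 2 against 2 libraries allow. The shares add up to the whole in each library, so they are not separate results. The sum of these 3 genes was also divided by that of Rela, Relb and Rel. That ratio was 1.68 ± 0.00584 with daidzein and 1.68 ± 0.0983 in control libraries (SD, n = 2 each). It does not give all inhibitors per activating subunit. The sum of the 3 genes leaves out Nfkbib, at 30.5 FPKM on average, and includes Nfkbiz, whose product helps switch genes on.

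**Figure D3:**
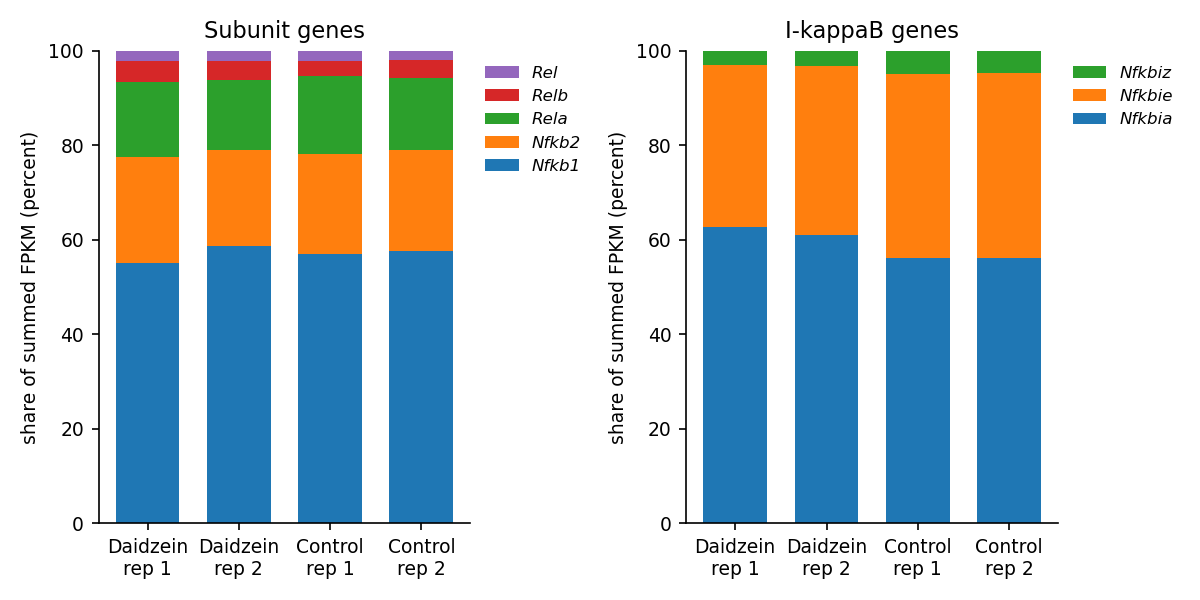
Share of summed FPKM in percent (vertical) in the 2 daidzein libraries and the 2 control libraries (horizontal), for the 5 subunit genes on the left and the 3 I-kappaB genes on the right. Nfkb1 takes 55.1% to 58.6% of the subunit sum in all 4 libraries, and Nfkbia takes 62.6% and 61.1% of the I-kappaB sum with daidzein against 56.1% in both control libraries.

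Of 109 further genes of the pathway, listed by role, 71 had enough reads to test. By edgeR 0 passed, where 0.0171% of all tested genes did, and DESeq2 and limma called 0 as well. At an unadjusted p under 0.05 there were 2, where the share of all tested genes was 2.91%. Of the 71 genes 32 were higher and 39 lower with daidzein, and their median log2 difference was -0.02. Groups did not overlap for 8 higher and 10 lower, against 14.7% and 15% of all tested genes.

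The ligand and receptor genes were few. Of 10 ligand genes 4 had 0 reads in every library, among them Il1b and Il33, and 3 were tested, 2 higher and 1 lower. Tnf, the founding ligand of the pathway, had the highest level per length, at 4.77 FPKM on average, with 135 and 152 reads with daidzein, against 125 and 129 reads in control libraries. Ltb, a subunit of the lymphotoxin ligand, had 52 and 69 reads with daidzein, against 38 and 38 reads in control libraries. Its log2 difference was 0.57 ± 0.26 (SE), with an unadjusted p of 0.0421 and an adjusted p of 1.00 by edgeR. Of 17 receptor genes 7 were tested, 2 higher and 5 lower. Il1rl1, the receptor for interleukin-33, was the most abundant per length, at 23.4 FPKM on average, with 2765 and 3049 reads with daidzein, against 2561 and 2759 reads in control libraries. Il1rap, the chain that this receptor needs to signal, was looked up after its values were seen and had 0 reads in every library. Il18r1 had the smallest p of the receptors, with 22 and 49 reads with daidzein, against 48 and 53 reads in control libraries, a log2 difference of -0.61 ± 0.31 (SE). Daidzein replicate 1 decided this value: the log2 difference of Il18r1 was -0.20 without it and -1.23 without daidzein replicate 2.

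Of the genes between the receptors and the subunits, 0 passed the test. Of 6 receptor adaptor genes 1 was higher and 5 lower, with log2 differences from -0.07 to 0.17. Irak1, a kinase of the Toll and interleukin-1 receptors, was the most abundant at 22.2 FPKM, and Tirap, an adaptor of Toll-like receptors, had the smallest p at 0.216 by edgeR. Of 8 genes of the Card, Bcl10 and Malt1 route, which links antigen and IgE receptors to the pathway, 5 were tested, 2 higher and 3 lower, with log2 differences from -0.07 to 0.07. Prkcd had the highest level, at 16.6 FPKM, and Prkcq the smallest p, at 0.332. Of 14 ubiquitin ligase and adaptor genes 13 were tested, 6 higher and 7 lower. Rbck1, a subunit of the ligase that builds linear ubiquitin chains, was the most abundant at 45.6 FPKM, and Btrc, whose product marks I-kappaB proteins for degradation, had the smallest p, with a log2 difference of 0.16 ± 0.10 (SE).

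All 13 listed kinase genes and kinase subunits were tested, 9 higher and 4 lower, with a median log2 difference of 0.02. Tab2, an adaptor of the kinase Map3k7, had the highest level at 27.6 FPKM and a log2 difference of 0.10 ± 0.06 (SE). Map3k14, the kinase that starts processing of the Nfkb2 precursor, had 55 and 68 reads with daidzein, against 88 and 81 reads in control libraries. Both daidzein libraries lay below both control libraries, with a log2 difference of -0.56 ± 0.21 (SE), an unadjusted p of 0.0167 and an adjusted p of 1.00 by edgeR. The values of its neighbours in the alternative pathway, Relb and Nfkb2, are given above.

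Of the further inhibitors, likewise, 0 passed. Nfkbib, a cytoplasmic I-kappaB gene outside the 10, stood at 30.5 FPKM on average, above the 12.7 FPKM of Nfkbia. Bcl3, a nuclear I-kappaB gene, had 39 and 39 reads with daidzein, against 56 and 37 reads in control libraries, with groups that overlapped. Of 14 other negative regulators 12 were tested, 8 higher and 4 lower, with log2 differences from -0.11 to 0.11. Tax1bp1, an adaptor of the Tnfaip3 product, had both the highest level, at 47.1 FPKM, and the smallest p, at 0.177 by edgeR.

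Among other known targets, 7 of 21 had enough reads to test, 1 higher and 6 lower, with a median log2 difference of -0.03. Bcl2l1, which encodes a survival protein, was the most abundant at 34.1 FPKM. Plau, the urokinase gene, had the smallest p, at 0.274 by edgeR, with a log2 difference of -0.14 ± 0.13 (SE). Il6, a known target of the Nfkbiz product, had 334 and 291 reads with daidzein, against 315 and 289 reads in control libraries, with groups that overlapped, and was looked up after the values of Nfkbiz were seen. Of the integrin genes whose products bind Icam1, Itgal stood at 27.4 FPKM and Itgam had 0 reads. Itgal had a log2 difference of -0.08 ± 0.06 (SE), and 0 of the 2 integrin genes tested passed.

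**Figure D4:**
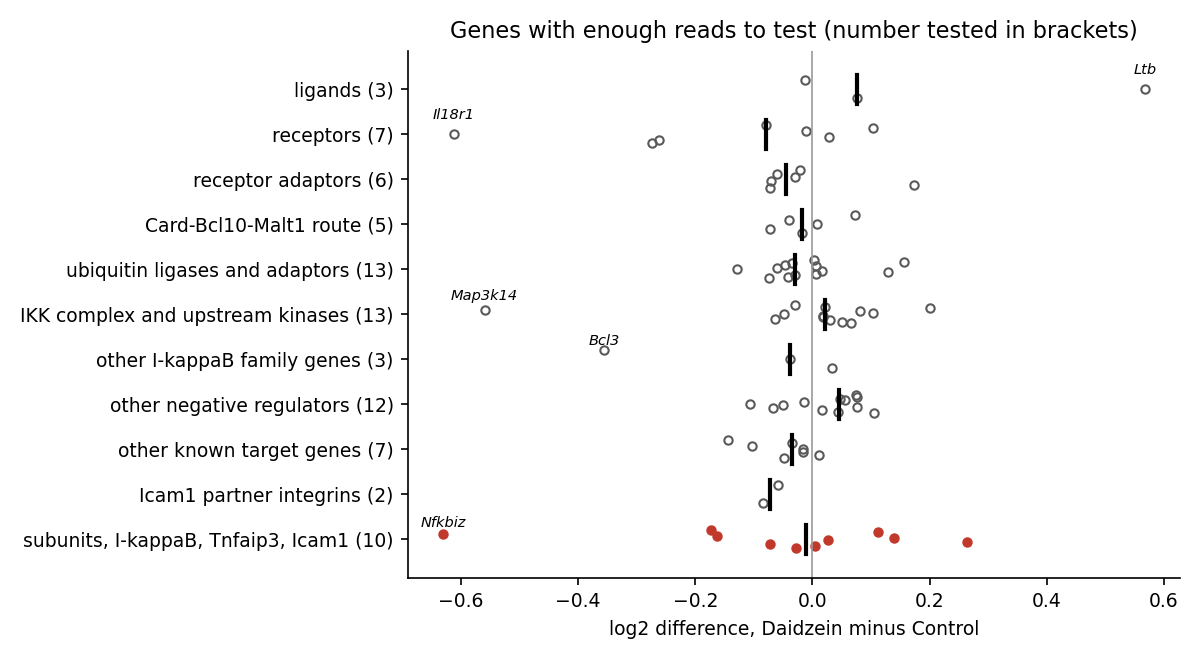
Log2 difference, daidzein minus control (horizontal), for the tested genes of each role in the pathway (vertical, number tested in brackets), with black bars for list medians and the 10 members in red. List medians lie between -0.08 and 0.08, and Ltb, Il18r1, Map3k14 and Nfkbiz lie farthest from 0.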

How the data were processed

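The table deposited by the authors gives unnormalized read counts for each gene beside FPKM computed by the authors. Of the FPKM, 100% lay within 0.01 of count over exonic length and library total for the 65326 values with a read. HTSeq 0.6.1, DESeq2 and HISAT2 2.0.1 are tools, and mm9 a build, listed per the submitters' processing notes without their roles. Coordinates are those of GRCm38: 55141 identifiers matched GENCODE M21, 99.6% with the same start, and all 10 members matched exactly. No source used here gives the strand setting of the counting.

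The main test on counts was that of edgeR 4.0.16, run in R 4.3.3 (TMM, filterByExpr, quasi-likelihood F test, Benjamini-Hochberg over 11700 genes, threshold 0.05). CPM are TMM-normalised, per library size, from the deposited counts, and printed FPKM were recomputed from them. The steps were tested on simulated data. Alternatives were DESeq2 1.42.0, limma 3.58.1 trend on log2(FPKM + 1) and log2(FPKM + 0.1), other filters, a replicate block, robust estimation and each library left out. For the 107 symbols found on more than 1 row, the row with most reads was used. Pairs of libraries differed by more than sampling noise, with a chi-square per degree of freedom of 2.23 to 4.81, lowest for the pairs of equal replicate number across groups (2.23 and 3.51) and 4.38 and 4.17 within the daidzein and control groups. The floor covers counting error only.

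The members and lists were chosen with earlier results of these data known. Named genes are the 10 members, the most abundant and smallest-p gene of each pathway list, and the most abundant and the nearly absent markers. Any other gene was named with its values in view.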

Additional observations from a re-analysis of the deposited data

How the results depend on the processing

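The count of 0 members past edgeR's threshold held in all 11 alternatives, and 0 pathway genes passed in any of them, out of 62 tested with the stricter filter, 94 with no minimum count and 71 otherwise. The lowest adjusted p of a member in any of them was 0.531, for Nfkbiz with the replicate block. Of 109 recomputed log2 differences of members, 104 kept their direction and 5 changed it, all with a library left out. The range was then -0.0573 to 0.0016 for Nfkb1, -0.0738 to 0.0824 for Nfkb2, -0.15 to 0.0127 for Rela and -0.00988 to 0.0660 for Rel. On the log2(FPKM + 1) scale the difference of Nfkbiz was -0.28 beside -0.63, and that of Tnfaip3 0.027 beside 0.11. The count of 2 over all genes was 1 by DESeq2, 11 with no minimum count, 1 with a minimum of 5 CPM in 2 libraries, and 0 by limma on FPKM with either pseudocount. It was 11 without daidzein replicate 1, 17 without daidzein replicate 2, 1 without control replicate 1 and 6 without control replicate 2, fits in which a single remaining library is taken to vary as the other group does. The cause was not tested. Tnfaip3 did not reach the stricter filter, so it has no value there.

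With the replicate number as a block the count over all genes was 27 and that over members 0. The numbers were not taken to pair libraries, since no label ties them to a shared culture. Deviations from the group mean correlated at 0.114 across genes between the replicate 1 libraries of the groups. With 2 libraries per group, replicate 2 gives the same value by construction. The 2 pairs of equal number did, however, have the lowest chi-square of the 6 pairs of libraries. TMM-scaled sizes moved 0 of 10 member levels by more than their spread, and principal transcript lengths moved 7. Pairs of neighbours without overlap numbered 8 on library totals and 6 with principal lengths.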
